A study of Homo sapiens with 12 samples.

Results

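ZC3H6, LNP1, FAM13B, FAM187A, ZNF365 and ZNF587B are 6 protein-coding genes, of 36459 gene symbols with estimated counts, in HEK293 cells, a human embryonic kidney cell line. They were taken as little-studied genes with a large difference between cells given ferric ammonium citrate (FAC, an iron salt) and cells given vehicle. They were chosen by their log2 fold change in FAC against vehicle, so for that contrast they are described and not tested. All 6 passed the filter on low counts that left 14209 genes. Their 28 annotated transcripts lie among 188753 in the transcript table. Of the 28 transcripts, 12 passed the transcript filter, 7 were at 0 in all 12 libraries, and the other 9 had at most 17 counts in any library.

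The study measured poly-A RNA in 4 groups of 3 libraries. HEK293 cells received oleic acid together with FAC, FAC alone, oleic acid alone, or vehicle. It asked whether oleic acid, a monounsaturated fatty acid, alters the response to FAC, which the submitters used to induce ferroptosis, a cell death that depends on iron and lipid peroxidation. The labels state neither dose nor treatment time, nor do they say whether the 3 libraries of a group came from separate cultures, so p-values measure the spread between these libraries, which may be technical.

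The genes have little in common by known role. ZC3H6 carries CCCH zinc fingers, a fold that in related proteins binds RNA. LNP1 is named for its fusion to the nucleoporin gene NUP98 in leukaemia. FAM187A encodes a predicted membrane protein of unknown function. ZNF365 is known for roles at the centrosome and in keeping the genome stable during DNA replication. ZNF587B belongs to the KRAB zinc fingers, a large family of DNA-binding proteins, mostly repressors, many of whose genes lie in clusters on chromosome 19.

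Library totals ran from 14098216 to 18717397 estimated counts, so 3 counts, the most that a count of 0 allows, were 0.160 to 0.213 CPM (counts scaled to library size), a limit that covers counting error only. This limit was scaled by the library total alone. The levels below were also scaled by a factor per library (TMM, 0.808 to 1.08). TFRC, the transferrin receptor, whose mRNA is lowered by iron, stood at 13.35 to 16.35 CPM with oleic acid + FAC and 16.8 to 22.1 CPM with FAC, against 57.8 to 130.2 CPM with oleic acid and 112.9 to 133.6 CPM with vehicle. No library overlapped between groups with and without FAC. Markers fixed for HEK293 and embryonic kidney summed to 894 to 1974 CPM in every library, most of it VIM (583.3 to 1427 CPM), which many cell types express. The kidney marker PAX8 was nearly absent, at 0 to 0.405 CPM. Markers of other cell types summed to 9.41 to 17.95 CPM for fibroblasts, nearly all from COL1A1, 2.78 to 5.46 CPM for blood, 0.780 to 1.79 CPM for endothelium, 0.407 to 1.345 CPM for mature kidney tubule and at most 0.397 CPM for hepatocytes. Library 3 of oleic acid + FAC and library 3 of oleic acid stood apart. In the third oleic acid + FAC library, 12.1% of counts fell on mitochondrial mRNAs, against 3.33% to 7.50% in the other 11. Across genes, deviation from the group mean ran against transcript length in both (r = -0.39 and r = -0.52, against -0.23 to 0.36 elsewhere). Results below were recomputed without both.

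Cells given oleic acid + FAC had more ZC3H6 and LNP1 RNA and less FAM13B, FAM187A, ZNF365 and ZNF587B RNA than cells given oleic acid alone. ZC3H6 was 3.62-fold and LNP1 2.20-fold higher. FAM187A was 3.60-fold, FAM13B 3.58-fold, ZNF365 2.72-fold and ZNF587B 2.70-fold lower. These 6 libraries did not enter the contrast that chose the genes. Over all genes tested, 2.21% were called (0.760% higher and 1.45% lower; edgeR quasi-likelihood F test, Benjamini-Hochberg adjusted p under 0.05), and 0.429% were called and at least 2-fold changed. ZC3H6, FAM13B and FAM187A had already been seen to change in this comparison when the list was drawn up, so their calls are a description and add no support. The other 3, LNP1, ZNF365 and ZNF587B, were called in the fit of all 12 libraries, LNP1 higher and both zinc finger genes lower. Their calls held in 10, 5 and 8 of 12 fits that left out a library, in that order. Where a FAC or vehicle library was left out, these fold changes stayed as they were and only the shared spread moved. With a compared library left out, ZNF365 held only without the third oleic acid library. ZNF587B then held only without library 3 of either group, and LNP1 was lost without the second oleic acid + FAC or the first oleic acid library. None of the 3 was called on the 6 compared libraries alone. With a trend on transcript length removed from each library, the 314 calls over all genes (108 higher, 206 lower) became 314 higher and 362 lower, 4.76% of all genes, and all 6 genes were among them. With the replicate number as a block there were 740 calls (277 higher and 463 lower), 5.21% of all genes, and all 6 genes were among these too. In bulk RNA of this kind, fewer cells of a type and less RNA per cell cannot be told apart.

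The calls rest on a spread estimated from all 12 libraries. Fitted on the 6 compared libraries alone, 1 of the 6 genes, FAM13B, was called, and 19 genes in all. With oleic acid + FAC against oleic acid, no library of either group overlapped for any of the 6 genes, a separation that 18.1% of all genes showed. With FAC against vehicle, the contrast that chose the genes, 22.4% of all genes did not overlap, and across both, 6.84% had all 6 libraries with FAC apart from all 6 without. Nothing is read from the separation of the FAC and vehicle libraries in these genes.

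**Figure D1:**
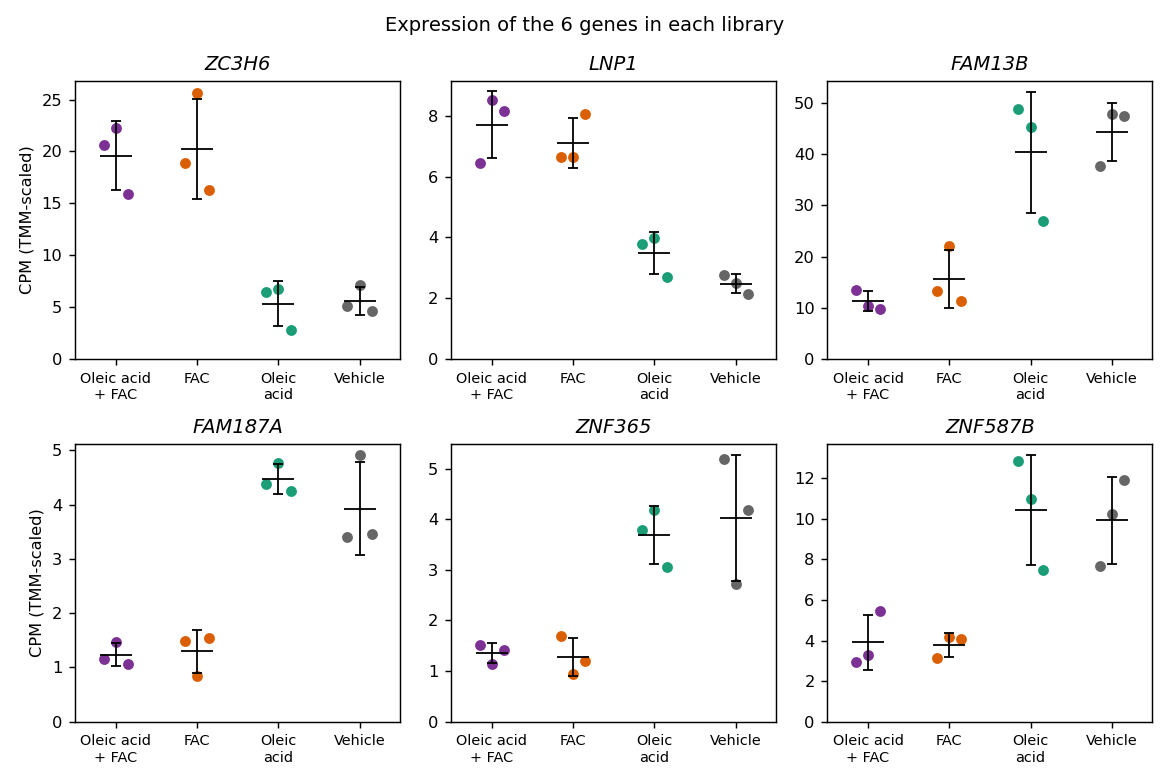
CPM scaled by TMM for each gene, 1 point per library (3 per group, libraries 1 to 3 left to right) with the group mean and SD, on linear axes that start at 0. ZC3H6 and LNP1 are higher in both groups with FAC and the other genes are lower, with no overlap between groups with and without FAC, where the FAC and vehicle libraries chose the genes and 6.84% of all genes show the same. The third oleic acid library is the lowest of its group for each of the 6 genes.

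The same 6 genes in FAC against vehicle differed by log2 fold changes of 1.85 (SE 0.29) for ZC3H6, 1.52 (SE 0.21) for LNP1, -1.50 (SE 0.26) for FAM13B, -1.60 (SE 0.29) for FAM187A, -1.66 (SE 0.31) for ZNF365 and -1.39 (SE 0.27) for ZNF587B. These are the values behind the choice. All 6 differed at least 2-fold, as 2.08% of all genes did (2.34% with oleic acid + FAC against oleic acid), and by size of fold change they ranked between 44 and 120 of 14209 genes. By the adjusted p, 1.19% of all genes were called in FAC against vehicle (0.457% higher and 0.732% lower). Nothing further is read from it.

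**Figure D2:**
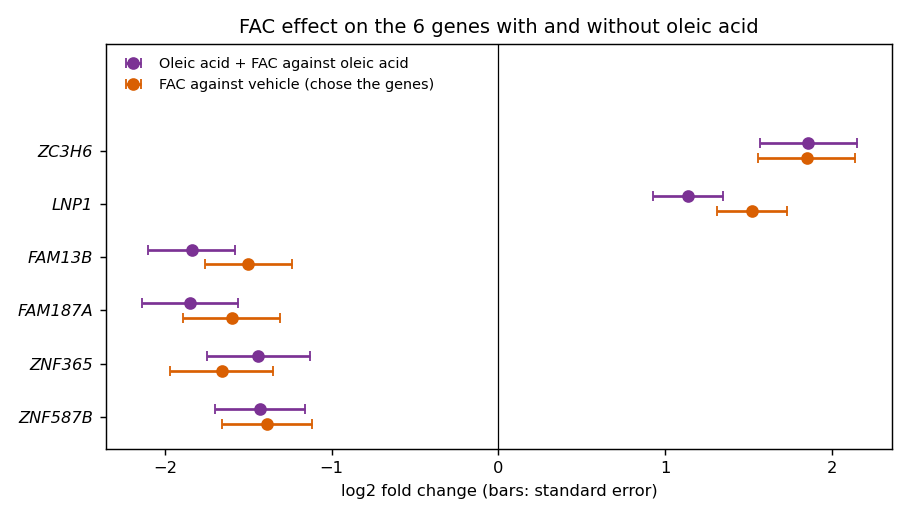
Log2 fold change with its standard error for the FAC effect with oleic acid (oleic acid + FAC against oleic acid) and without it (FAC against vehicle, the contrast that chose the genes), 3 libraries per group. Each gene lies on the same side of 0 in both, from -1.85 to 1.86 with oleic acid.

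ZC3H6 lies on chromosome 2 (chr2:112275594-112340063, plus strand, GRCh38). It had 20.6, 22.3 and 15.9 CPM in the oleic acid + FAC libraries, against 6.48, 6.71 and 2.84 CPM in the oleic acid libraries. With FAC alone it had 18.9, 25.6 and 16.3 CPM, against 5.07, 7.12 and 4.63 CPM with vehicle. Every oleic acid + FAC library was at least 15.9 CPM and every oleic acid library at most 6.71 CPM. Of all genes, 18.1% had no overlap between these groups. With oleic acid + FAC, ZC3H6 rose by a log2 fold change of 1.86 (SE 0.29, edgeR adjusted p = 0.0078) and the closest libraries of the 2 groups were 2.37-fold apart. It stayed called with each library left out in turn (edgeR adjusted p of 0.00769 to 0.0422).

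Nearly all ZC3H6 counts were assigned to 2 transcripts, ZC3H6-201 and ZC3H6-202, each annotated with 12 exons and a coding length of 3567 bases. In 11 of 12 libraries both had exactly the same estimated count, for example 142, 237 and 130 in the FAC libraries. In 1 library, the first of oleic acid + FAC, ZC3H6-201 had 2 counts and ZC3H6-202 had 333. The sequences are shown because they show how little separates these transcripts. The transcripts align over 11535 bases with 0 mismatches, and ZC3H6-202 has 7 more bases at its 5′ end, in capitals here, while ZC3H6-201 has 4 more at its 3′ end.
ZC3H6-201 5′ end: ttttctcgagccgcctgttt
ZC3H6-202 5′ end: GGCGCCAttttctcgagccgcctgttt

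The annotation also places their junction after exon 7 at 2 different positions. Exon 7 of ZC3H6-201 ends at base 112317334 and its next exon starts at base 112321758, while for ZC3H6-202 these are 112317332 and 112321756. The spliced RNA reads the same either way. The capitals mark the pair of bases that belong to exon 7 in ZC3H6-201 and to the next exon in ZC3H6-202.
ZC3H6 junction, both transcripts: catttatatgcataATgaatttccatgcaa

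Only 4 of the 31-base words of ZC3H6-201 and 7 of those of ZC3H6-202 occur in no other transcript of GENCODE 29, so the counts hardly separate these 2. Their log2 fold changes with oleic acid + FAC against oleic acid were 1.26 (SE 1.00) for ZC3H6-201 and 2.29 (SE 0.49) for ZC3H6-202, neither called (edgeR adjusted p = 1 and adjusted p = 0.282). Summed, an alternative chosen after seeing the data, they gave 1.87 (SE 0.39, edgeR adjusted p = 0.273 over all transcripts). ZC3H6-203, a retained-intron transcript of 963 bases, had 0 to 17 counts. It made up 3.5% ± 1.1 of the gene's counts with oleic acid + FAC and 6.3% ± 8.3 with oleic acid (SD, n = 3 each).

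LNP1 lies on chromosome 3 (chr3:100401193-100456319, plus strand). It had 6.46, 8.51 and 8.16 CPM in the oleic acid + FAC libraries, against 3.80, 3.97 and 2.69 CPM in the oleic acid libraries. The FAC libraries had 6.63, 6.63 and 8.06 CPM and the vehicle libraries 2.78, 2.49 and 2.15 CPM. The closest libraries of oleic acid + FAC and oleic acid were 1.63-fold apart. LNP1 rose by a log2 fold change of 1.14 (SE 0.21, edgeR adjusted p = 0.0176). That call was lost without the second oleic acid + FAC library (edgeR adjusted p = 0.0843), without the first oleic acid library (0.0597) and without library 3 of both groups (0.0547).

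LNP1-201, the 2210-base coding transcript, carried the counts of this gene. It had 111, 132 and 88 counts with oleic acid + FAC and 65, 64 and 31 with oleic acid. The nonsense-mediated decay transcript LNP1-202 had 0, 18 and 27 counts with oleic acid + FAC and 0, 10 and 5 with oleic acid, and was at 0 in 3 libraries in all. LNP1-201 held 88.2% ± 11.7 of the gene's counts with oleic acid + FAC and 90.9% ± 7.9 with oleic acid (SD, n = 3 each). Its log2 fold change of 1.08 (SE 0.31) was not called over all transcripts (edgeR adjusted p = 0.553). LNP1 overlaps TOMM70, a mitochondrial import receptor gene read from the other strand, by 206 exon bases. The use of strand in the counting is not given in the sources used here, and 8.1% of the 31-base words of LNP1-201 also occur in TOMM70 transcripts, read on either strand. TOMM70 itself averaged 136.7 ± 10.8 CPM with oleic acid + FAC and 133.0 ± 7.18 CPM with oleic acid (SD, n = 3 each; log2 fold change 0.04, SE 0.10, edgeR adjusted p = 0.891).

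FAM13B lies on chromosome 5 (chr5:137937960-138051961, minus strand). It had 13.5, 10.4 and 9.87 CPM with oleic acid + FAC, against 48.9, 45.2 and 26.9 CPM with oleic acid. With FAC the libraries had 13.3, 22.1 and 11.4 CPM and with vehicle 37.8, 47.9 and 47.4 CPM. Between oleic acid + FAC and oleic acid, the closest libraries were 1.99-fold apart. FAM13B fell with oleic acid + FAC by a log2 fold change of -1.84 (SE 0.26, edgeR adjusted p = 0.00535). It was the one gene of the 6 called under all 22 alternatives, with values of -2.06 to -1.68. The third oleic acid library, at 26.9 CPM, was the lowest without FAC, as it was for TFRC at 57.8 CPM. Without library 3 of both groups the log2 fold change was -1.97. The second FAC library, at 22.1 CPM, was the highest with FAC.

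Of 11 annotated FAM13B transcripts, FAM13B-201 (23 exons, 5465 bases) had most of the counts. It had 219, 154 and 130 counts with oleic acid + FAC, against 715, 699 and 334 with oleic acid. FAM13B-203, a 22-exon coding form of 3098 bases, had 0.714, 1.67 and 0.484 CPM with oleic acid + FAC, against 7.22, 7.67 and 1.845 CPM with oleic acid. Both transcripts had a lower mean CPM with oleic acid + FAC than with oleic acid. For FAM13B-203, the second oleic acid + FAC library (1.67 CPM, 29 counts) came close to the third oleic acid library (1.845 CPM, 25 counts). The share of FAM13B-201 was 90.5% ± 5.9 with oleic acid + FAC and 87.0% ± 5.1 with oleic acid (SD, n = 3 each), a difference within the spread. Log2 fold changes were -1.76 (SE 0.30, edgeR adjusted p = 0.156) for FAM13B-201 and -2.53 (SE 0.66, edgeR adjusted p = 0.47) for FAM13B-203. Of the 31-base words of FAM13B-201, 9.7% also occur in PKD2L2, an overlapping gene with at most 2 counts in any library.

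FAM187A lies on chromosome 17 (chr17:44899712-44905390, plus strand). Its levels were 1.16, 1.48 and 1.06 CPM with oleic acid + FAC, from 20, 26 and 15 counts, against 4.38, 4.78 and 4.26 CPM with oleic acid, from 75, 89 and 57 counts. With FAC it had 1.496, 0.842 and 1.55 CPM, against 3.40, 4.92 and 3.47 CPM with vehicle. The closest libraries of oleic acid + FAC and oleic acid were 2.89-fold apart. The gene fell by a log2 fold change of -1.85 (SE 0.29, edgeR adjusted p = 0.0078). It stayed called with any library left out (edgeR adjusted p of 0.00535 to 0.0358).

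These counts cannot be assigned to FAM187A alone. Every 31-base word of both FAM187A transcripts also occurs in CCDC103, a gene for a dynein arm assembly factor that spans the same stretch, and FAM187A-201 is identical in sequence to CCDC103-204 in GENCODE 29. The deposited table gives CCDC103 9, 1 and 1 counts with oleic acid + FAC and 6, 20 and 2 with oleic acid. CCDC103 did not pass the filter, with at most 20 counts in any library. FAM187A also overlaps GFAP, a gene read from the other strand, by 2230 exon bases. GFAP averaged 0.339 CPM with oleic acid + FAC and 0.435 CPM with oleic acid (log2 fold change -0.32, SE 0.60, edgeR adjusted p = 0.832). The split between FAM187A-201 and FAM187A-202 moved widely within groups. FAM187A-201 took 40.0% to 80.0% of the gene's counts with oleic acid + FAC and 52.0% to 78.9% with oleic acid, and in the FAC libraries it had 18, 0 and 10 counts. Both were lower with oleic acid + FAC, by log2 fold changes of -1.80 (SE 1.06, edgeR adjusted p = 0.874) for FAM187A-201 and -1.84 (SE 0.90, edgeR adjusted p = 0.82) for FAM187A-202.

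ZNF365 lies on chromosome 10 (chr10:62374192-62670301, plus strand). Its levels were 1.51, 1.14 and 1.42 CPM with oleic acid + FAC, from 26, 20 and 20 counts, against 3.80, 4.19 and 3.06 CPM with oleic acid, from 65, 78 and 41 counts. With FAC it had 1.69, 0.948 and 1.19 CPM, against 5.19, 2.72 and 4.18 CPM with vehicle. Between oleic acid + FAC and oleic acid, the closest libraries were 2.025-fold apart. ZNF365 fell by a log2 fold change of -1.44 (SE 0.31, edgeR adjusted p = 0.0331), the weakest call of the 6. It held in 5 of 12 fits that left out a library and was lost without any one of the oleic acid + FAC libraries (edgeR adjusted p = 0.0721, 0.137 and 0.0841 for the first to the third), the first or second oleic acid library (0.107 and 0.115), the third FAC library (0.0524) or the third vehicle library (0.0564). Without library 3 of both groups the value was 0.0507 (edgeR adjusted p).

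The ZNF365 transcripts differed in how counts were shared out, at low counts. ZNF365-201, a coding form of 4173 bases, had 26, 18 and 0 counts with oleic acid + FAC, 11, 13 and 16 with FAC, 32, 63 and 21 with oleic acid, and 78, 43 and 69 with vehicle. ZNF365-205, a processed transcript of 3256 bases with no annotated coding part, had 0, 0 and 20 counts with oleic acid + FAC, 11, 0 and 0 with FAC, 33, 9 and 20 with oleic acid, and 6, 0 and 0 with vehicle. It was at 0 in 6 libraries, and in the third oleic acid + FAC library it took all of the gene's counts. ZNF365-201 has 0 words of 31 bases that occur in no other transcript and ZNF365-205 has 30. Of their words, 28.3% and 7.0% also occur in AC024598.1, an overlapping gene with no gene count here. Neither was called with oleic acid + FAC against oleic acid (log2 fold changes -1.40, SE 1.04, and -1.49, SE 2.21; edgeR adjusted p = 0.98 and adjusted p = 1).

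ZNF587B lies on chromosome 19 (chr19:57819741-57846238, plus strand). It had 2.97, 3.29 and 5.47 CPM with oleic acid + FAC, against 12.8, 11.0 and 7.47 CPM with oleic acid. The FAC libraries had 3.12, 4.16 and 4.06 CPM and the vehicle libraries 7.66, 10.2 and 11.9 CPM. The third libraries of oleic acid + FAC and oleic acid, the closest of these groups, were only 1.37-fold apart. ZNF587B fell by a log2 fold change of -1.43 (SE 0.27, edgeR adjusted p = 0.021). The call was lost without the first or second oleic acid + FAC library (edgeR adjusted p = 0.0708 and 0.0983) and without the first or second oleic acid library (0.0884 and 0.0728). Without library 3 of both groups the log2 fold change was -1.92.

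**Figure D3:**
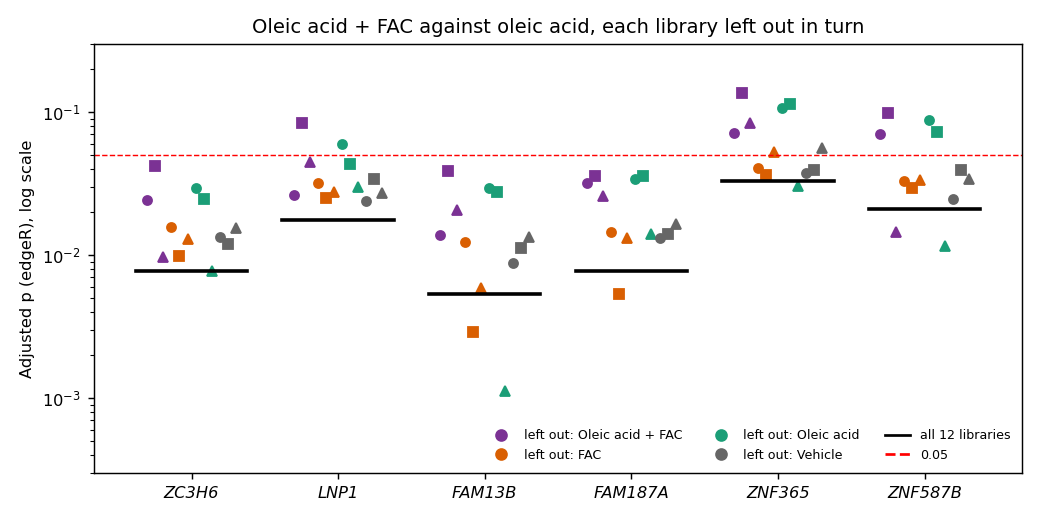
Adjusted p (log axis) for oleic acid + FAC against oleic acid in each gene, with each of the 12 libraries left out in turn (circle, square and triangle for libraries 1, 2 and 3, coloured by the group of the library left out) beside the fit of all 12 (black line) and 0.05 (dashed). ZC3H6, FAM13B and FAM187A stay under 0.05 throughout. LNP1, ZNF365 and ZNF587B pass it for some left-out libraries, ZNF365 for 7 of them.

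ZNF587B-201, the one transcript of the gene that passed the filter, had 20, 36 and 67 counts with oleic acid + FAC, against 87, 117 and 80 with oleic acid. Its log2 fold change was -1.14 (SE 0.48, edgeR adjusted p = 0.799). Between 13.0% and 60.8% of the gene's count in a library was not in its transcripts as GENCODE 29 names them. That remainder averaged 1.27 ± 0.577 CPM with oleic acid + FAC and 4.36 ± 2.69 CPM with oleic acid (SD, n = 3 each). Replacing the deposited gene counts by sums over named transcripts gave the gene a log2 fold change of -1.22 and ended the call (edgeR adjusted p = 0.128). Sequence is shared too, since 27.3% of the 31-base words of ZNF587B-201 occur in other genes, the most, 13.9%, in its neighbour ZNF814.

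**Figure D4:**
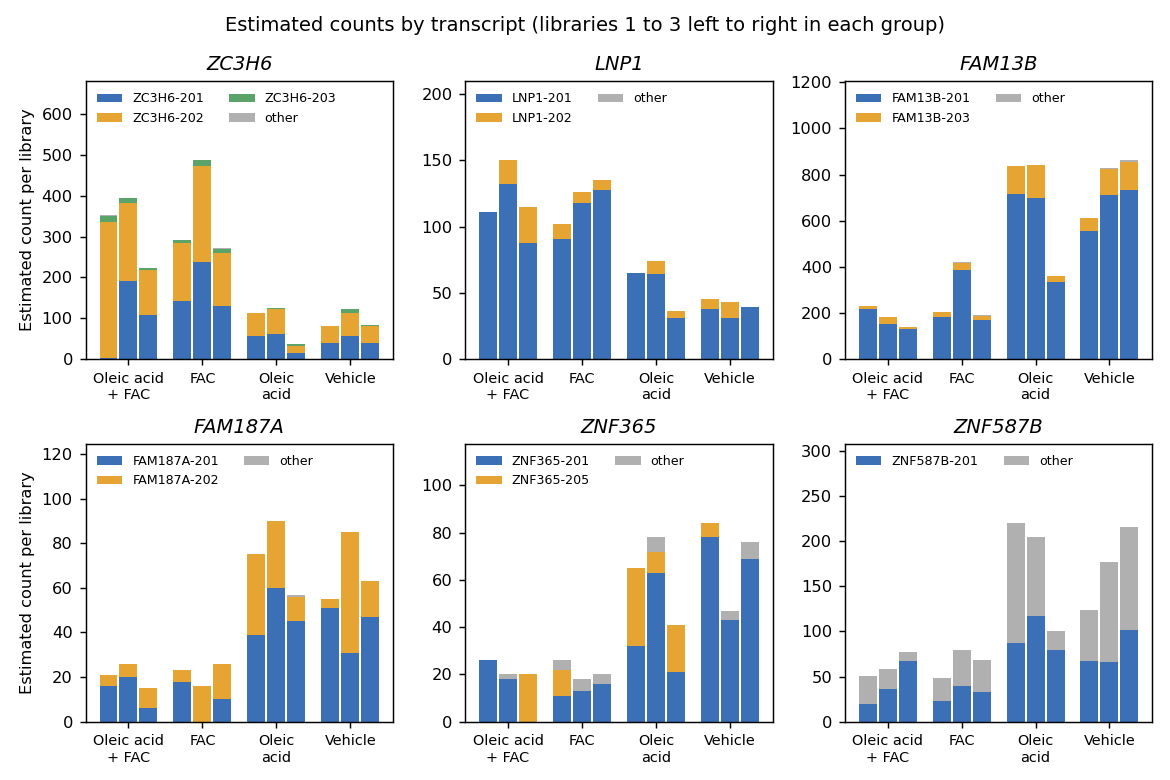
Estimated counts per library (bars, 3 per group, libraries 1 to 3 left to right), divided by transcript, with gene counts outside the named transcripts in grey, on linear axes from 0. ZC3H6-201 and ZC3H6-202 are equal in every library but 1, FAM13B-201 and LNP1-201 dominate their genes throughout, and the FAM187A and ZNF365 transcripts trade places between libraries of 1 group.

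Over all transcripts, 0.0117% were called with oleic acid + FAC against oleic acid (6 of 51464), and 0 of the 12 transcripts of these genes were among them by edgeR. DESeq2 called 4 of the 12, FAM13B-201 (adjusted p = 4.8e-04), ZC3H6-202 (0.00272), LNP1-201 (0.0178) and FAM13B-203 (0.021), where it called 1.02% of all transcripts (527 of 51501). At an unadjusted p under 0.05, edgeR had 5, those 4 and ZNF587B-201, where 6.14% of all transcripts had one. ZC3H6-202 had the same count as ZC3H6-201 in 11 of 12 libraries, so its DESeq2 call cannot be assigned to it alone. A shift of counts between transcripts of a gene was tested separately. Of the 5 genes with 2 or more transcripts tested, 0 were called (edgeR diffSpliceDGE adjusted p = 1 for each; the lowest unadjusted p was 0.308, for FAM13B, so 0 were under 0.05), where 0.385% of 10378 genes were (40, and 17 with the replicate block). That test does not show that shares were equal, given the low counts of FAM187A and ZNF365. It could hardly find a shift between ZC3H6-201 and ZC3H6-202, whose counts were equal in 11 of 12 libraries. FAM187A-201, FAM187A-202 and ZNF365-201 each have 0 words of 31 bases that occur in no other transcript.

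Oleic acid alone moved none of the 6 genes past the test. In oleic acid against vehicle, 0.00% of all genes were called (0 of 14209, by DESeq2 and limma-voom too, with 0.830% at an unadjusted p under 0.05). This comparison and the next 2 share libraries with the contrast that chose the genes. LNP1 had the largest difference of the 6, 3.49 ± 0.695 CPM with oleic acid and 2.47 ± 0.316 CPM with vehicle (SD, n = 3 each; log2 fold change 0.50, 95% interval 0.03 to 0.98, edgeR adjusted p = 1). The oleic acid and vehicle libraries overlapped for every one of the 6, and 3.60% of all genes did not overlap. For the other 5 the log2 fold change was between -0.13 and 0.19, with intervals reaching from -0.75 to 0.76.

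Adding oleic acid to FAC gave no call either, with 0.00% of all genes called in oleic acid + FAC against FAC (1 gene by DESeq2, 0 by limma-voom, and 4.05% at an unadjusted p under 0.05). FAM13B averaged 11.3 ± 1.95 CPM with oleic acid + FAC and 15.6 ± 5.68 CPM with FAC (SD, n = 3 each; log2 fold change -0.47, 95% interval -1.04 to 0.10, edgeR adjusted p = 0.707). The groups overlapped for each of the 6. In the other 5 genes the log2 fold change was between -0.06 and 0.12, with intervals from -0.71 to 0.81. Over all genes, the difference between the FAC effect with oleic acid and the FAC effect without it gave 0 calls by edgeR and 0 by DESeq2, with 116 genes at an unadjusted p under 0.05. For the 6 genes this difference subtracts the fold change on which they were chosen, so it is given without a test. On the log2 scale it was 0.00 (SE 0.40) for ZC3H6, -0.39 (SE 0.30) for LNP1, -0.34 (SE 0.36) for FAM13B, -0.24 (SE 0.40) for FAM187A, 0.22 (SE 0.44) for ZNF365 and -0.04 (SE 0.39) for ZNF587B.

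Per kilobase of transcript, the order of the 6 genes differed between groups with and without FAC. The genes were chosen by their change in FAC against vehicle, so nothing is read from this difference. With oleic acid + FAC the mean CPM per kilobase was 3.57 for LNP1, 2.187 for FAM13B, 1.76 for ZC3H6, 1.20 for ZNF587B, 0.445 for FAM187A and 0.353 for ZNF365. FAM13B and ZC3H6, ZC3H6 and ZNF587B, and FAM187A and ZNF365 overlapped there. With FAC the same order held, from 3.29 for LNP1 to 0.332 for ZNF365, and LNP1 and FAM13B, FAM13B and ZC3H6, and FAM187A and ZNF365 overlapped. Without FAC, FAM13B came highest, at 7.83 CPM per kilobase with oleic acid and 8.61 with vehicle, and ZC3H6 lowest, at 0.479 and 0.503. ZNF587B followed FAM13B without overlap in both, at 3.19 with oleic acid and 3.04 with vehicle. With oleic acid, LNP1 and FAM187A came next and overlapped, at 1.61 each, above ZNF365 at 0.958. With vehicle, FAM187A, LNP1 and ZNF365 stood next at 1.42, 1.14 and 1.05, with FAM187A overlapping LNP1 and LNP1 overlapping ZNF365.

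ZC3H6 and ZNF587B were chosen for a large change with FAC, and their relatives were described for comparison. Of 15 CCCH zinc finger genes tested beside ZC3H6, 0 rose and 0 fell with oleic acid + FAC against oleic acid, and their log2 fold changes lay between -0.36 and 0.08 with a median of -0.11, against 1.86 for ZC3H6. At an unadjusted p under 0.05 there were 4 of the 15, where 16.1% of all genes had one. Of 33 KRAB and SCAN zinc finger genes of 19q13.43, where ZNF587B lies, 0 were called (14 at an unadjusted p under 0.05), while 28 had a negative log2 fold change and their median was -0.38, where the median of all genes was 0.00 and 49.6% were negative. With the length trend removed the median was -0.34, where that of all genes was 0.03, and 3 of the 33 were called, ZNF587, ZNF211 and ZNF549 (log2 fold changes -0.91, -0.67 and -0.62; edgeR adjusted p = 0.0217, 0.0416 and 0.035), named after their values were seen. In that setting 4.76% of all genes were called. ZNF587, next to ZNF587B, had the most negative log2 fold change of the 33, with 9.58 ± 2.21 CPM with oleic acid + FAC and 19.2 ± 5.66 CPM with oleic acid (SD, n = 3 each; SE of the log2 fold change 0.30, edgeR adjusted p = 0.112). NUP98, the fusion partner of LNP1, averaged 104.4 ± 20.45 CPM with oleic acid + FAC and 144.7 ± 30.59 CPM with oleic acid (SD, n = 3 each). It was not called (log2 fold change -0.47, SE 0.18, edgeR adjusted p = 0.22), but was with the length trend removed (-0.39, SE 0.09, edgeR adjusted p = 0.0291). Of the 3 partners and namesakes tested, NUP98, NDE1 and NDEL1, it was the only one so called.

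**Figure D5:**
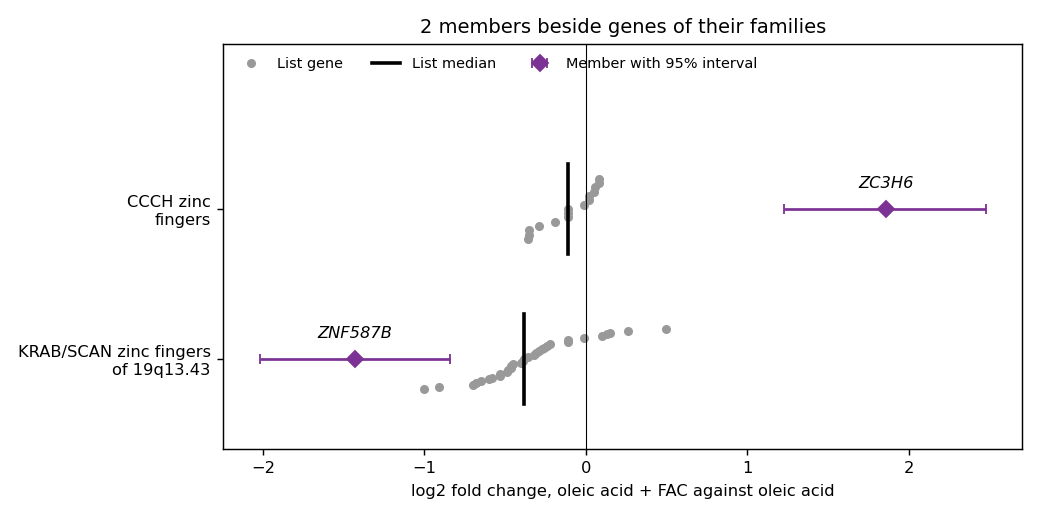
Log2 fold change, oleic acid + FAC against oleic acid, for ZC3H6 and ZNF587B (diamonds, 95% interval) and for genes of the same family (grey points, sorted within a row) with the family median (black line). The diamonds lie outside the range of the family genes tested. Both genes were chosen for a large change with FAC, so nothing is read from that. The zinc finger genes of 19q13.43 have a median of -0.38.

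None of the neighbouring genes tested passed the threshold. Of 25 genes that overlap one of the 6 or lie next to it, and were tested, 0 were called with oleic acid + FAC against oleic acid and 0 with FAC against vehicle by edgeR (4 and 3 at an unadjusted p under 0.05, where 16.1% and 12.1% of all genes had one). ZC3H8, which lies 20458 bases from ZC3H6, averaged 16.0 ± 0.401 CPM with oleic acid + FAC and 20.4 ± 1.58 CPM with oleic acid (SD, n = 3 each; log2 fold change -0.35, edgeR adjusted p = 0.221), the other direction from ZC3H6. EFTUD2, a spliceosome gene 50 bases from FAM187A, had a log2 fold change of -0.21 (edgeR adjusted p = 0.403). ZNF586 and ZNF552 beside ZNF587B had -0.38 and -0.45 (edgeR adjusted p = 0.245 and adjusted p = 0.268).

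For each gene, the 3 others whose log2 CPM followed it most closely over the 12 libraries were taken from the 12325 genes whose log2 CPM averaged at least 1. Libraries fall into those with and without FAC, so these values mostly restate that split. ZC3H6 was followed by SYT1 (Pearson r = 0.984), E2F3 (0.975) and UST (0.973), and LNP1 by HS3ST3B1 (0.974), AC107871.1 (0.957) and TCF7L2 (0.951). FAM13B was followed by DIDO1 (0.987), NBPF1 (0.986) and MAT2A (0.982), the last the enzyme that makes S-adenosylmethionine. FAM187A was followed by DGKZ (0.969), ZNF512 (0.962) and IPO5P1 (0.958), ZNF365 by PSMD5 (0.958), TNFAIP1 (0.952) and TIMM10B (0.951), and ZNF587B by GTPBP10 (0.966), PTCD2 (0.966) and SS18L1 (0.965). On the CPM scale 8 of these 18 genes were named again, and without library 3 of both groups 7 were.

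Promoter windows from RefSeq (GRCh38.p14, 250 bases before to 50 after the start of the gene) were found for all 6 genes. They are shown for both genes that rose, for FAM13B, the most abundant of those that fell, and for FAM187A, whose window has the fewest CpG sites. Capitals mark the GC box (GGGCGG) and the CCAAT box (CCAAT) on either strand, so CCGCCC and ATTGG are the same motifs read from the other strand. The windows are chr2:112275347-112275646 (plus) for ZC3H6, chr3:100401289-100401588 (plus) for LNP1, chr5:138033030-138033329 (minus) for FAM13B and chr17:44903183-44903482 (plus) for FAM187A.
ZC3H6: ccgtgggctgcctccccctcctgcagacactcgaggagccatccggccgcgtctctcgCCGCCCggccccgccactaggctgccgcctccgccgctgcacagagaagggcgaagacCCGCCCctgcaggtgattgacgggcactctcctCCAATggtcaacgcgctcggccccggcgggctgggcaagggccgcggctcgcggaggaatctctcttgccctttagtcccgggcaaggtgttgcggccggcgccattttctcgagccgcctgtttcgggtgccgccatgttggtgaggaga
LNP1: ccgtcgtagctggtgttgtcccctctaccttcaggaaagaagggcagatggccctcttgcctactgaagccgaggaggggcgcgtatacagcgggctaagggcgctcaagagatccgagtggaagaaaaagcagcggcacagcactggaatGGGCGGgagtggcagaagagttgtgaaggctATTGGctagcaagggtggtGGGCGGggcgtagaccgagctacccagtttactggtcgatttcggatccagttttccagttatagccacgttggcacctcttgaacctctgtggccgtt
FAM13B: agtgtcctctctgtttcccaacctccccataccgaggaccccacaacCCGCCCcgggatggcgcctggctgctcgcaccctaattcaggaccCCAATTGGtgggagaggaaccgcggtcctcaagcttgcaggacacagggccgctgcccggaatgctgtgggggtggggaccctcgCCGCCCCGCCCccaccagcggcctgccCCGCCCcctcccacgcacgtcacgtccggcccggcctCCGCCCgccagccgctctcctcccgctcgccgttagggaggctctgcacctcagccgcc
FAM187A: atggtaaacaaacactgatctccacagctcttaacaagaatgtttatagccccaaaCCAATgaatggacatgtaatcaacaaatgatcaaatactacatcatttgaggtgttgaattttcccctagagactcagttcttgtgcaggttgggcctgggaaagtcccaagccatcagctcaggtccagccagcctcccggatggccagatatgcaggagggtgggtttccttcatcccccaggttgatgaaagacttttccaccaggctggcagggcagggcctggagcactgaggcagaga

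The ZC3H6 and FAM13B windows are rich in G and C, 70.0% and 71.7%, with 32 and 26 CpG sites, against a median of 58.7% and 14 sites over 35116 promoters. The FAM187A window has 49.3% G and C and 1 CpG site. It begins at base 44903183, past the starts of FAM187A-201 (base 44899774) and FAM187A-202 (base 44899712). The bases before those transcripts were therefore not examined. The windows of FAM187A, LNP1, FAM13B and ZNF587B lie wholly inside their genes as GENCODE 29 draws them. For LNP1 the window begins past the start of LNP1-201 at base 100401193, so it does not cover the bases before that transcript. A GC box occurs in the windows of ZC3H6, LNP1, FAM13B and ZNF365, and in 45.0% of all promoters. A CCAAT box occurs in all but ZNF365, and in 34.6% of all promoters. FAM13B holds 5 GC box matches and 2 CCAAT matches that overlap as CCAATTGG. The antioxidant response core TGACNNNGC and the sterol regulatory element TCACNCCAC match none of the 6 windows and 13.3% and 1.1% of all. The hypoxia response core ACGTG matches LNP1, FAM13B and ZNF587B and 21.4% of all promoters, and the E box CACGTG, which contains it, matches ZNF587B and 7.3% of all. The metal response core TGCNCNC matches FAM13B, ZNF365 and ZNF587B and 55.9% of all promoters. No motif searched was in both windows of the genes that rose and in none of those that fell.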

How the data were processed

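Poly-A RNA from HEK293 cells, with an RNA integrity number of 10 in all samples per the labels, was made into TruSeq libraries. Per the submitters' processing notes, bcl2fastq 2.19, kallisto 0.46.1, sleuth 0.30.0 and GRCh38.p12 (hg38) were used, with no order given. The deposited tables hold estimated counts per gene symbol and per transcript, already whole numbers. Transcript IDs were matched without version to GENCODE 29 (169754 of 188753, 89.93%). Levels are CPM scaled by TMM.

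Genes and transcripts were kept by filterByExpr and fitted over all 12 libraries in edgeR 4.0.16 (R 4.3.3), with a mean per group, two-sided quasi-likelihood F tests and Benjamini-Hochberg adjustment over all features kept. The gene set, family lists and named genes were chosen with earlier results of these data known. Named genes are the 6, their transcripts past the filter, TFRC, neighbours, the 3 closest genes over libraries, and family members past the test. ZNF587, ZNF211 and ZNF549 of the zinc finger list, NUP98, and TOMM70 and CCDC103 for shared sequence, were named after their values were seen. Alternatives were RLE scaling, DESeq2 1.42.0, limma-voom (limma 3.58.1), no filter, a replicate block, a length-trend offset, each library left out, library 3 of oleic acid + FAC and of oleic acid left out, and the compared libraries alone. Replicates of a group differed by more than counting noise (chi-square per degree of freedom 8.14 to 122.2). Libraries of oleic acid + FAC and oleic acid with the same replicate number deviated from their group means together (correlations of 0.46, 0.30 and 0.61 across genes), so by the rule used the numbers pair them, from the data, not the labels. The gene-level test of oleic acid + FAC against oleic acid and the transcript usage test were tried on simulated counts. The other steps were not. The results of 1 fixed family list are not reported here.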

Additional observations from a re-analysis of the deposited data

How the results depend on the processing

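All 6 genes kept their direction in oleic acid + FAC against oleic acid under all 22 alternatives for each gene. The count of genes called in it, 314, moved to 775 with DESeq2 (329 higher, 446 lower; 312 shared), 740 with the replicate block, 676 with the length trend removed, 1902 with both the trend removed and the replicate block (1049 higher and 853 lower, so that the balance turned; 313 shared), 19 with the compared libraries alone (18 shared), and 55 to 449 with a library left out, fewest without the second oleic acid + FAC library. Of the 6 genes, 1 was called with the compared libraries alone, where fewer libraries give the spread, 4 without library 3 of both groups, and 3 to 6 with a library left out. The 3 left called without the second oleic acid + FAC library or the first oleic acid library were ZC3H6, FAM13B and FAM187A. Genes called for transcript usage, 40, moved to 21 with no filter, 17 with the replicate block, 92 without library 3 of both groups and 14 to 130 with a library left out. Transcripts called, 6, moved to 527 with DESeq2, 25 without library 3 of both groups and 2 to 17 with a library left out; of the 12 transcripts of these genes DESeq2 called 4. Oleic acid + FAC against FAC gave 1 gene with DESeq2 and 1 with the trend removed and the replicate block. The causes were not tested. The replicate block, with the numbers pairing the oleic acid + FAC and oleic acid libraries, changed no call of the 6 genes in that comparison; over all 4 groups 13 of 18 same-number correlations of deviations were over 0.1, and the other 5 all involve vehicle. Counts of 15 to 26 per library limit FAM187A and ZNF365 with FAC.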
